A study of Mus musculus with 12 samples.

Results

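The casein kinase 1 (CK1) genes of mouse rod photoreceptors are described here: Csnk1a1, Csnk1d, Csnk1e, Csnk1g1, Csnk1g2 and Csnk1g3. They were chosen by gene name on the primary chromosomes and are 6 of the 52962 genes in the deposited gene table. The series perturbed protein kinase CK2 and asked about NRL-driven gene expression in rods. CK2 and CK1 share a historical name, because both phosphorylate casein in the test tube, but they belong to separate branches of the kinase tree, so the CK1 genes serve as a comparison with the perturbed kinase.

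Retinas were electroporated with plasmids, GFP-positive rods were picked by hand at postnatal day 8, and 50 to 100 of them went into a library. Of the 4 groups of 3 libraries, shRNA mCsnk2a1 received a short hairpin RNA against mouse Csnk2a1, the gene of the CK2 alpha catalytic subunit, and shRNA Control a control hairpin. The group pcDNA4c mCsnk2a1 received the pcDNA4c expression vector with mouse Csnk2a1, and pcDNA4c Control the vector as control. All groups share the electroporation and the GFP-based picking. The sources used here name neither the promoter behind each construct nor the mouse strain. The samples are labelled as independent RNA preparations, but the labels do not say whether they came from separate animals, and the p-values below cover the spread between these libraries, part of which may be technical. Each library is a bulk of cells, in which fewer cells of a type and less RNA per cell cannot be told apart.

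CK1 enzymes are monomeric serine/threonine kinases that are active without a regulatory subunit and often act on substrates already phosphorylated by another kinase. CK1 alpha, from Csnk1a1, primes beta-catenin for GSK3 in the Wnt destruction complex and thereby marks it for breakdown. CK1 delta and CK1 epsilon, from Csnk1d and Csnk1e, phosphorylate the PER proteins and so set the pace of the circadian clock, while the gamma enzymes, from Csnk1g1, Csnk1g2 and Csnk1g3, sit at the plasma membrane through a lipid anchor and phosphorylate the Wnt co-receptor LRP6.

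Summed estimated counts were 2840426 to 3567121 in shRNA mCsnk2a1, 1608926 to 1856775 in shRNA Control, 2296056 to 3551328 in pcDNA4c mCsnk2a1 and 1692419 to 2017623 in pcDNA4c Control. Both Csnk2a1 groups were thus deeper than their controls without overlap, and the part of this gap in the results was not tested. All 10 rod markers were detected in every group. Their summed level in counts-per-million (CPM) units was 11308 to 13769 in shRNA mCsnk2a1, 5382 to 7486 in shRNA Control, 5145 to 11186 in pcDNA4c mCsnk2a1 and 5512 to 7126 in pcDNA4c Control. Markers of other retinal cell types were present too, and several lists separated the groups without overlap. The 10 amacrine and horizontal cell markers summed to 606 to 789 CPM in shRNA mCsnk2a1 and 242 to 449 CPM in shRNA Control, and to 578 to 666 CPM in pcDNA4c mCsnk2a1 and 202 to 240 CPM in pcDNA4c Control. The gap between the shRNA groups rested on Prox1, with 170, 399 and 305 CPM in shRNA mCsnk2a1 and 102, 221 and 70.3 CPM in shRNA Control. Without Prox1 the sums of these 2 groups overlapped. Gad1 went the other way, with 7.51, 8.62 and 1.07 CPM in shRNA mCsnk2a1 and 21.3, 19.1 and 20.4 CPM in shRNA Control. The 8 Muller glia markers summed to 948 to 1405 CPM in shRNA mCsnk2a1 and 496 to 783 CPM in shRNA Control, but to 540 to 663 CPM in pcDNA4c mCsnk2a1 and 1239 to 1590 CPM in pcDNA4c Control. The gap between the pcDNA4c groups came from 1 of these markers, Apoe. It had 1231, 1096 and 926 CPM in pcDNA4c Control and 75.2, 108 and 119 CPM in pcDNA4c mCsnk2a1. The higher sum in pcDNA4c Control therefore does not describe the other Muller glia markers. The 8 bipolar cell markers summed to 1001 to 1275 CPM in pcDNA4c mCsnk2a1 and 363 to 541 CPM in pcDNA4c Control, and all markers of these 3 lists were detected in each group. The 11 microglia and macrophage markers summed to 36.3 to 83.5 CPM in pcDNA4c mCsnk2a1 with 6 of them at 0, against 936 to 1088 CPM in pcDNA4c Control with all 11 detected. The part of these sums in the results was not tested. Csnk2a1 itself differed between shRNA mCsnk2a1 and shRNA Control by a log2 value of -0.92 (SE 0.88, edgeR adjusted p = 0.905) and by 1.18 between pcDNA4c mCsnk2a1 and pcDNA4c Control (SE 0.88, edgeR adjusted p = 0.801), so the targeted gene did not pass the test in either arm. It had 12.0, 22.2 and 36.0 CPM in shRNA mCsnk2a1 and 66.9, 57.2 and 8.51 CPM in shRNA Control, and 49.9, 145 and 122 CPM in pcDNA4c mCsnk2a1 and 86.6, 25.0 and 28.3 CPM in pcDNA4c Control, with overlap in both arms.

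All 6 CK1 genes were detected in all 12 libraries, and Csnk1a1 was the most abundant on average. Levels between genes are compared in transcripts-per-million (TPM) units, which divides by transcript length. These TPM were not scaled between libraries as the CPM were, so groups can compare differently in the 2 units. Csnk1a1 (ENSMUSG00000024576, chromosome 18, 61555274 to 61590061, plus strand, GRCm38) averaged 34.8 ± 13.3 TPM (SD, n = 12 libraries), above 96.2% of 20734 protein-coding genes, and ranked first of the 6 in 6 libraries. Its level was 38.4, 38.7 and 29.2 TPM in shRNA mCsnk2a1 and 44.6, 34.5 and 26.4 TPM in shRNA Control. It was 48.0, 62.1 and 35.9 TPM in pcDNA4c mCsnk2a1 and 29.5, 18.9 and 11.9 TPM in pcDNA4c Control. The shRNA groups overlapped, while the 3 pcDNA4c mCsnk2a1 libraries all lay above the 3 of pcDNA4c Control in TPM. In scaled CPM the pcDNA4c groups overlapped, with a lowest value of 159 in pcDNA4c mCsnk2a1 and a highest of 169 in pcDNA4c Control. The means of shRNA mCsnk2a1 and shRNA Control were 35.4 and 35.2 TPM, but 174 and 131 CPM. Csnk1a1 was also the steadiest member: the SD of its log2 level within groups was 0.45, lower than in all but 2.59% of the genes tested, whose median was 1.51. Those genes were not matched to Csnk1a1 in level, and the part of its high level in this low SD was not tested.

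Csnk1e and Csnk1g1 came next among the steadier members. Csnk1e (ENSMUSG00000022433, chromosome 15, 79417856 to 79455566, minus strand) had 26.5, 16.4 and 19.1 TPM in shRNA mCsnk2a1 and 18.2, 23.5 and 48.2 TPM in shRNA Control. It had 16.2, 34.2 and 16.1 TPM in pcDNA4c mCsnk2a1 and 5.94, 19.0 and 9.52 TPM in pcDNA4c Control, and both pairs of groups overlapped. Csnk1g1 (ENSMUSG00000032384, chromosome 9, 65908924 to 66045015, plus strand) had 25.8, 52.9 and 11.6 TPM in shRNA mCsnk2a1 and 22.8, 8.77 and 24.9 TPM in shRNA Control. Its values were 9.82, 18.6 and 33.3 TPM in pcDNA4c mCsnk2a1 and 8.34, 17.1 and 4.98 TPM in pcDNA4c Control, again with overlap in both pairs.

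Csnk1d and Csnk1g2 had single libraries far above the rest. Csnk1d (ENSMUSG00000025162, chromosome 11, 120958990 to 120991330, minus strand) had 42.7, 18.8 and 9.16 TPM in shRNA mCsnk2a1 and 10.2, 2.43 and 16.1 TPM in shRNA Control. It had 4.08, 77.2 and 7.16 TPM in pcDNA4c mCsnk2a1 and 10.6, 3.12 and 52.7 TPM in pcDNA4c Control, so that it ranked first of the 6 genes in 3 libraries and last in 3. Csnk1g2 (ENSMUSG00000003345, chromosome 10, 80622838 to 80640749, plus strand) had 10.3, 2.28 and 5.18 TPM in shRNA mCsnk2a1 and 9.59, 14.1 and 27.8 TPM in shRNA Control. In pcDNA4c mCsnk2a1 it had 6.23, 71.6 and 7.66 TPM, and in pcDNA4c Control 13.0, 6.89 and 8.82 TPM. The second pcDNA4c mCsnk2a1 library held the highest value of the series for Csnk1a1, Csnk1d and Csnk1g2, and the 6 genes together reached 268 TPM there, against 73.4 to 145 TPM in the other 11 libraries.

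Csnk1g3 was the scarcest member and ranked last in 7 libraries. It lies on chromosome 18 (ENSMUSG00000073563, 53862122 to 53955548, plus strand) and averaged 5.44 ± 4.86 TPM (SD, n = 12). It had 1.02, 2.38 and 0.201 TPM in shRNA mCsnk2a1 and 6.70, 5.06 and 2.21 TPM in shRNA Control, groups that overlapped only through 1 library of each. It had 15.1, 4.72 and 4.67 TPM in pcDNA4c mCsnk2a1 and 5.98, 14.9 and 2.46 TPM in pcDNA4c Control, which overlapped widely. Csnk1g3 is also the one member with a sizeable look-alike: of its 4372 stretches of 31 bases, 495 (11.3%) also occur in the processed pseudogene Gm14584 on the X chromosome, whose own level ran between 0 and 58.1 CPM, so the split of fragments between the gene and the pseudogene is uncertain.

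**Figure D1:**
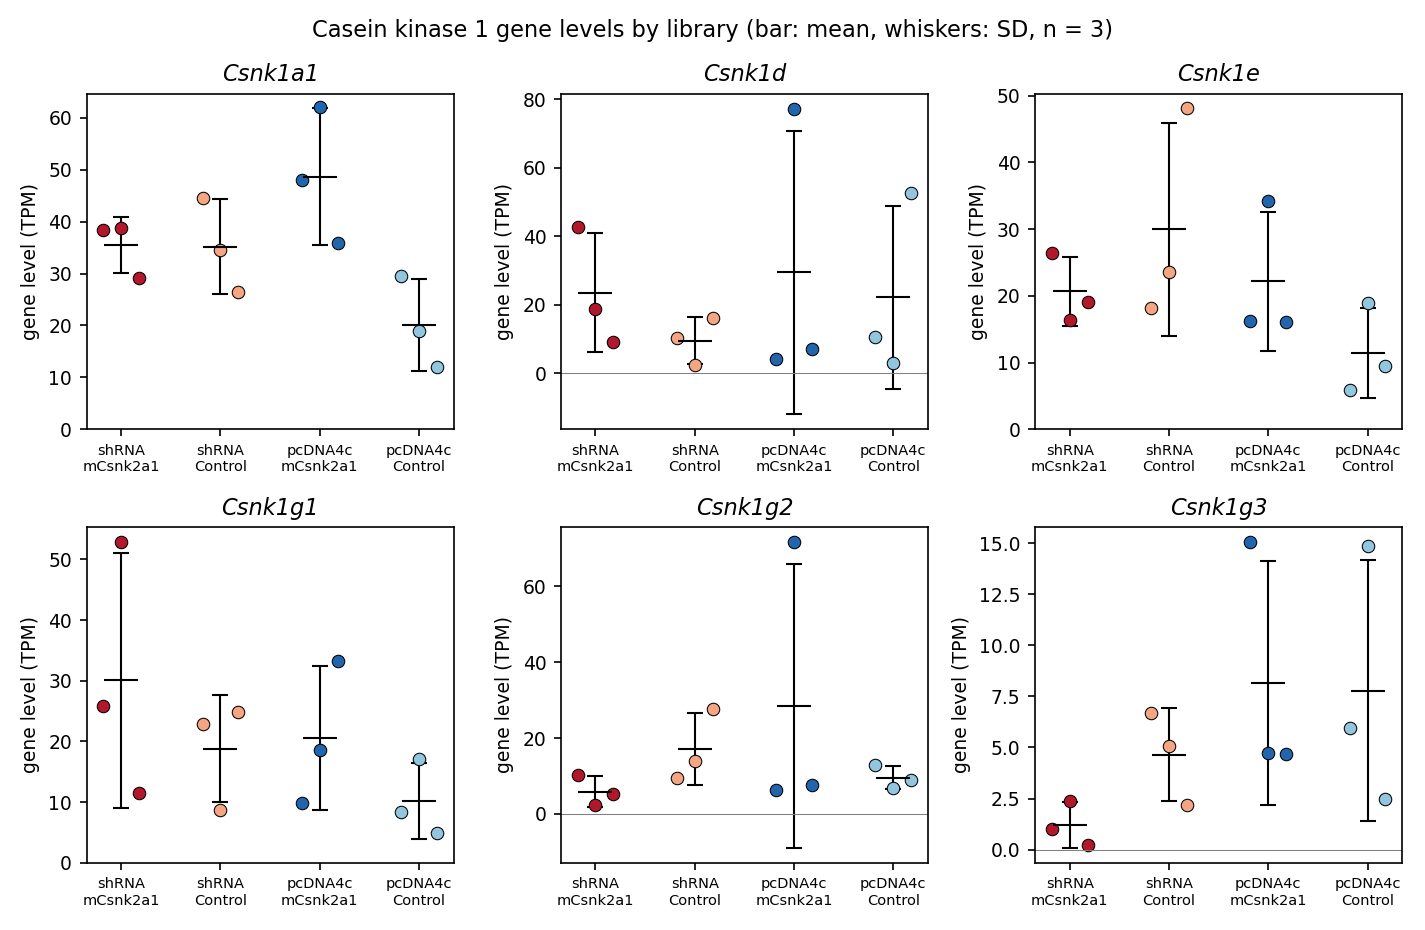
Gene level in TPM of each casein kinase 1 gene (vertical axes, each with its own linear scale) in the 4 groups (horizontal axes), with 1 point per library in replicate order, the mean as a horizontal bar and the SD as whiskers (n = 3). Csnk1a1 stays between 11.9 and 62.1 TPM, while Csnk1d and Csnk1g2 show a single pcDNA4c mCsnk2a1 library at 77.2 and 71.6 TPM.

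The order of the levels was tested over the 12 libraries with two-sided exact permutation tests of the log2(TPM + 1) differences, adjusted by the Benjamini-Hochberg method over the 15 pairs. Csnk1a1 exceeded each of the other 5 genes, by 0.76 over Csnk1e (higher in 10 of 12 libraries, exact permutation adjusted p = 0.0220) up to 2.74 over Csnk1g3 (higher in 12 of 12, adjusted p = 0.00732). Csnk1e also exceeded Csnk1g2 (by 0.78, 10 of 12 libraries, adjusted p = 0.0439) and Csnk1g3, and Csnk1g1 and Csnk1g2 exceeded Csnk1g3. The other 6 pairs did not pass, among them the neighbours Csnk1d and Csnk1e (-0.51, exact permutation adjusted p = 0.335), Csnk1e and Csnk1g1 (0.17, 0.537) and Csnk1d and Csnk1g2 (0.27, 0.537). In all, 9 of 15 pairs passed, and 6 to 8 did when a single library was left out. The calls that were lost in some of these repeats were Csnk1a1 over Csnk1d (exact permutation adjusted p up to 0.0774), Csnk1e over Csnk1g2 (up to 0.0879) and Csnk1g2 over Csnk1g3 (up to 0.0846).

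What the gene level consisted of differed between the members. The deposited transcript table lists 60 transcripts of the 6 genes that could be matched to GENCODE M21, and 51 of them were above 0 in at least 1 library. Protein-coding transcripts of at least 1000 nt made up a median of 100% of the Csnk1g3 level, 93.2% of Csnk1g2, 82.9% of Csnk1a1 and 69.0% of Csnk1e over the 12 libraries. The median was only 24.5% for Csnk1d and 21.7% for Csnk1g1, where a Csnk1d transcript outside GENCODE M21 was not counted as long coding. For Csnk1g1 the long coding share was under 50% in 11 of 12 libraries. Its leading transcripts were the 505-nt retained-intron transcript ENSMUST00000153391, at a mean of 6.56 TPM and up to 40.1 TPM in the second shRNA mCsnk2a1 library, and the 552-nt coding transcript ENSMUST00000154589, at a mean of 4.13 TPM, while the 7208-nt transcript ENSMUST00000034949 averaged 1.36 TPM and was above 0 in all 12 libraries.

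With only those long coding transcripts counted, the lead of Csnk1a1 held in every library and Csnk1d dropped from the second to the fifth place by mean level. Csnk1a1 then averaged 28.5 ± 14.1 TPM and Csnk1e 12.8 ± 7.69 TPM, followed by Csnk1g2 at 7.04 ± 4.00 TPM, Csnk1g3 at 4.43 ± 3.87 TPM, Csnk1d at 3.50 ± 2.91 TPM and Csnk1g1 at 3.42 ± 2.42 TPM (SD, n = 12 libraries). Csnk1a1 was above each of the other 5 in 12 of 12 libraries, and Csnk1e was above Csnk1d in 12 of 12 (log2 difference between Csnk1d and Csnk1e -1.73, exact permutation adjusted p = 0.00122). The lead of Csnk1e over Csnk1g2 no longer passed (adjusted p = 0.0667, exact permutation), nor did those of Csnk1g1 and Csnk1g2 over Csnk1g3. Csnk1d, Csnk1g1, Csnk1g2 and Csnk1g3 did not separate among themselves on this measure, with adjusted p values of 0.127 to 0.874 in the exact permutation tests. The 1000-nt limit was chosen after the transcript values had been seen. The measure also leaves out a Csnk1d transcript outside GENCODE M21, whose length and kind are not known. That transcript gave 16.5 TPM in the second shRNA mCsnk2a1 library, where the long coding transcripts of Csnk1e gave 12.1 TPM. The place of Csnk1d with it counted was not tested.

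**Figure D2:**
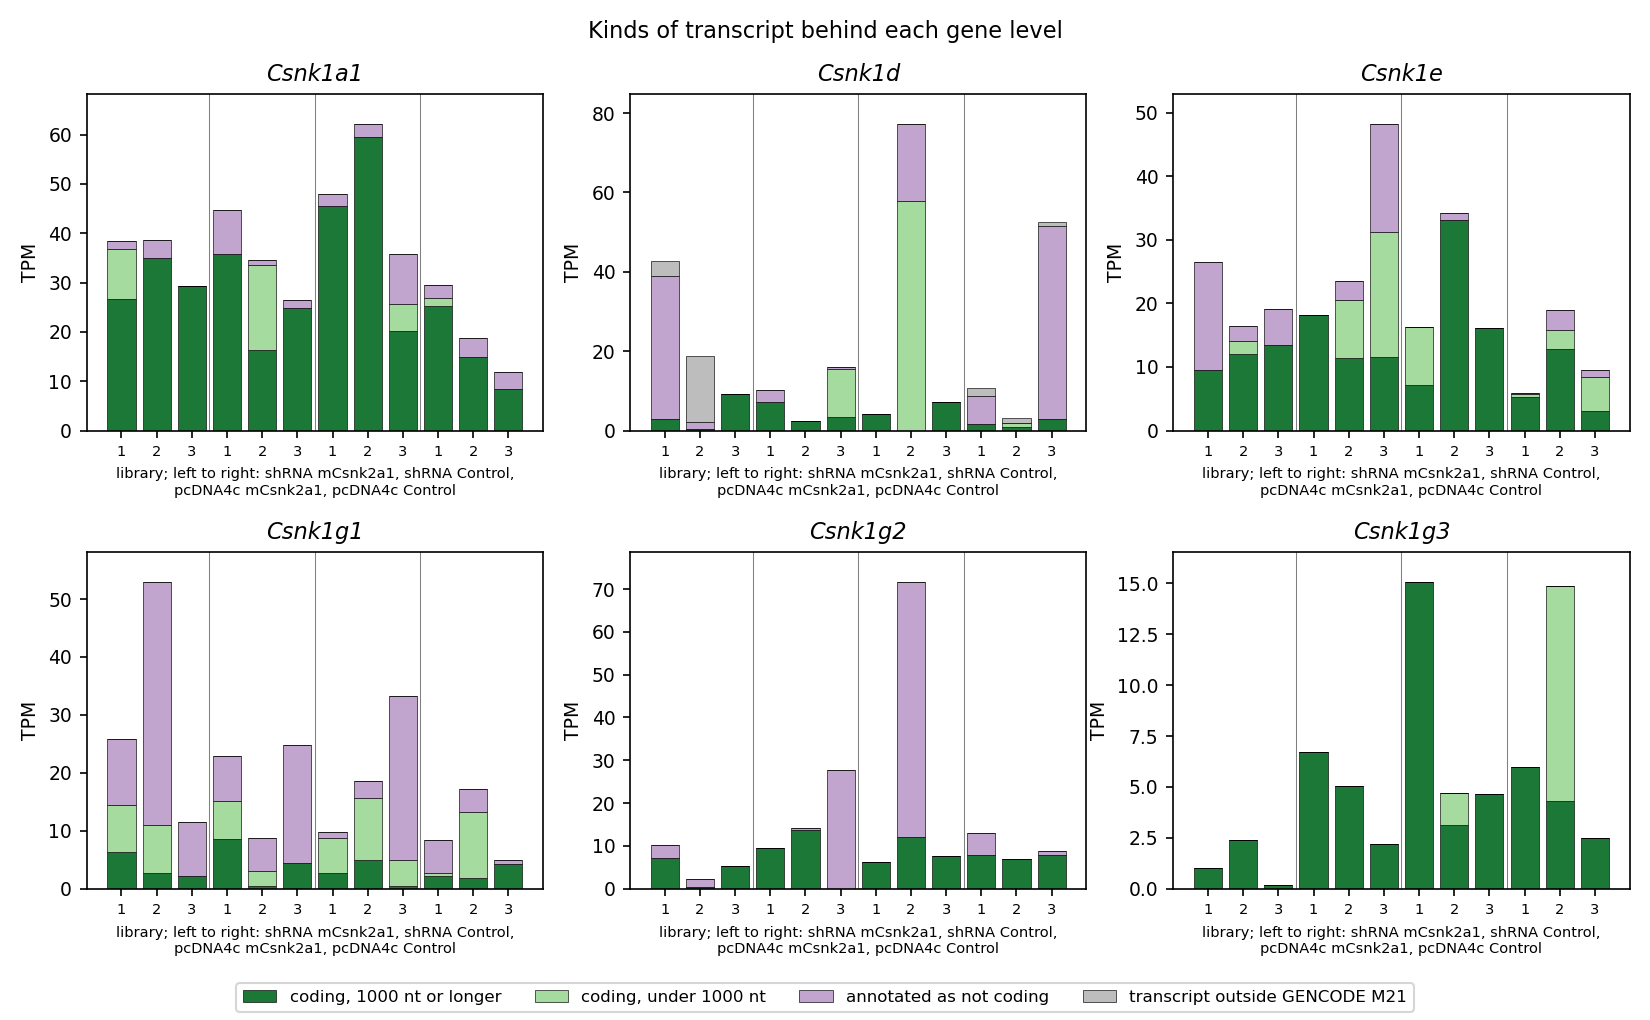
TPM of each casein kinase 1 gene in each of the 12 libraries (numbers are replicates within the 4 groups), stacked by kind of transcript: coding of 1000 nt or longer, coding and shorter, annotated as not coding, and outside GENCODE M21. The tallest Csnk1d and Csnk1g2 bars consist mostly of short or non-coding transcripts, while Csnk1a1 is mostly long coding transcript.

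The 3 libraries with the highest Csnk1d level each owed it to a different transcript, and not to a full-length coding one. In the first shRNA mCsnk2a1 library the 604-nt retained-intron transcript Csnk1d-208 gave 36.0 of 42.7 TPM. In the second pcDNA4c mCsnk2a1 library the 655-nt transcript Csnk1d-207 gave 58.0 of 77.2 TPM and the long coding transcripts 0. In the third pcDNA4c Control library the 192-nt transcript Csnk1d-204 gave 37.5 of 52.7 TPM, and it was at 0 in the other 11 libraries. In the second shRNA mCsnk2a1 library 88.1% of the level belonged to a further deposited transcript that is not in GENCODE M21. Its TPM was recovered from the gene value, and the sources used here give neither its length nor whether it is coding. That transcript was also above 0 in all 3 pcDNA4c Control libraries, at 1.79, 1.22 and 1.12 TPM, whereas none of Csnk1d-203 to Csnk1d-208 was above 0 in all 3 libraries of a group. A similar picture held for Csnk1g2, where the 473-nt retained-intron transcript Csnk1g2-208 gave 41.9 of 71.6 TPM in the second pcDNA4c mCsnk2a1 library, and where the long coding transcripts were at 0 in the third shRNA Control library.

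Stretches of these Csnk1d transcripts are shown because the gene's value turns on them; all are from the minus strand of chromosome 11 in GRCm38 and are written 5′ to 3′. Csnk1d-204 is shown whole, and its capitals mark an exon, chr11:120967612-120967736, that overlaps no other listed Csnk1d transcript. For Csnk1d-207 the capitals mark its own first exon, chr11:120990782-120990871, followed by the start of the next exon. For the 2 full-length coding transcripts the lower-case bases are the end of the exon they share, and the capitals are the coding sequence that each joins to it, chr11:120963859-120963906 for Csnk1d-201 and chr11:120964981-120965010 for Csnk1d-202. The capitals of Csnk1d-201 also lie in exons of Csnk1d-202, Csnk1d-203 and Csnk1d-205, and those of Csnk1d-202 in exons of Csnk1d-203 and Csnk1d-205. The junction shown for Csnk1d-201 sets it apart from these transcripts. Csnk1d-205 has the same junction as Csnk1d-202, so there only the annotation as coding sequence differs.
Csnk1d-204: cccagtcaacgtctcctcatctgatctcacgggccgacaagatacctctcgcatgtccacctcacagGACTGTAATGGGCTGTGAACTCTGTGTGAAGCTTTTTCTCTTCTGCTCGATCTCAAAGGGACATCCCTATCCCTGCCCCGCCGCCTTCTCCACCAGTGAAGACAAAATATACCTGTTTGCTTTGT
Csnk1d-201 coding end: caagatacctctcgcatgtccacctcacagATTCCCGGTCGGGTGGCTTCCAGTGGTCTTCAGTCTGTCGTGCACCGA
Csnk1d-202 coding end: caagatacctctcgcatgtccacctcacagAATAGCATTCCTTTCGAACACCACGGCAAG
Csnk1d-207 first exon: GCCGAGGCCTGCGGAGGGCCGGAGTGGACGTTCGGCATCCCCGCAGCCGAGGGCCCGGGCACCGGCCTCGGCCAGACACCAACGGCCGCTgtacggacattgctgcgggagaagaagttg

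These alternative ends give CK1 delta proteins with different tails, the tail being the part that restrains the kinase when it is itself phosphorylated. Csnk1d-201, of 3675 nt, was the only one of the pair above 0 in 5 libraries, and Csnk1d-202, of 3500 nt, in 4. Both were above 0 in 2 libraries, and neither in the second pcDNA4c mCsnk2a1 library. Csnk1d-201 had 0.694, 0.443 and 0 TPM in shRNA mCsnk2a1 and 2.89, 2.43 and 0 TPM in shRNA Control, and 4.08, 0 and 7.16 TPM in pcDNA4c mCsnk2a1 and 0, 0.882 and 0 TPM in pcDNA4c Control. Csnk1d-202 had 2.10, 0 and 9.16 TPM in shRNA mCsnk2a1 and 4.27, 0 and 3.34 TPM in shRNA Control, and was listed at 0 in the 3 pcDNA4c mCsnk2a1 libraries, with 1.61, 0 and 2.95 TPM in pcDNA4c Control. Neither end was tied to a group: its libraries overlapped or shared the value 0 in each pair. Csnk1d also overlaps the antisense gene Gm28192 by 921 bases, which was above 0 in 1 library; the kit keeps strand, but the sources used here do not say which strand setting the quantification had.

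**Figure D3:**
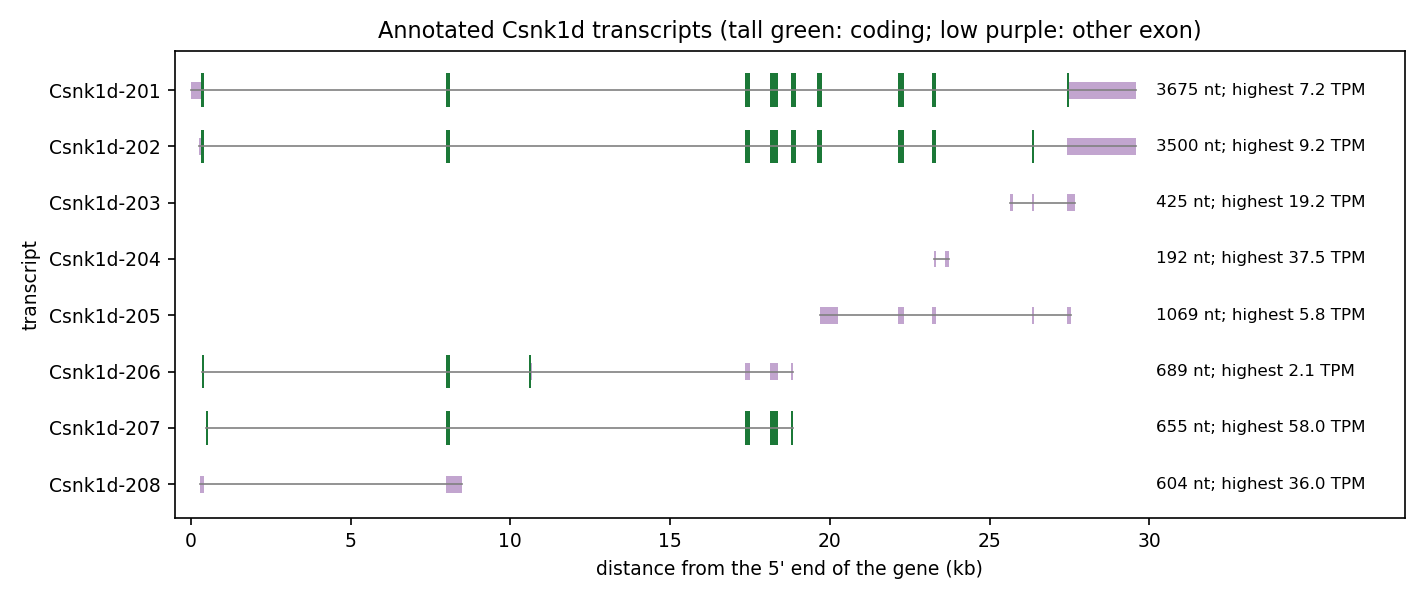
Exons of the 8 Csnk1d transcripts found in GENCODE M21, drawn to scale as distance in kb from the 5′ end of the gene, with coding parts tall and green and other exon parts low and purple. The length and the highest TPM in any library stand at the right: the full-length Csnk1d-201 and Csnk1d-202 peak at 7.2 and 9.2 TPM, below Csnk1d-207, Csnk1d-204 and Csnk1d-208 at 58.0, 37.5 and 36.0 TPM.

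Between shRNA mCsnk2a1 and shRNA Control, none of the 6 CK1 genes passed the edgeR test (adjusted p under 0.05 over 20267 genes), against a background of 0.0% called. Over all genes the test called 0, with 1688 (8.33%) at an unadjusted p under 0.05 and 183 called by DESeq2; no CK1 gene was among either set. Csnk1d differed by a log2 value of 1.69 (SE 1.08, edgeR adjusted p = 0.728), with 208, 84.0 and 42.4 CPM in shRNA mCsnk2a1 and 35.8, 8.34 and 59.0 CPM in shRNA Control. With long coding transcripts alone the sign turned, to -0.38. That measure leaves out the Csnk1d transcript outside GENCODE M21, which may or may not be long and coding. It had 3.87 and 16.5 TPM in the first and second shRNA mCsnk2a1 libraries and 0 TPM in shRNA Control. Csnk1g3 differed by -1.57 (SE 1.09, adjusted p = 0.779), Csnk1g2 by -1.13 (SE 0.97, 0.872) and Csnk1g1 by 1.04 (SE 0.75, 0.801). Csnk1a1 differed by 0.41 (SE 0.51) and Csnk1e by -0.15 (SE 0.68), with 95% intervals from -0.65 to 1.47 and from -1.57 to 1.28. The spread between libraries therefore leaves changes in Csnk1a1 of up to 2.77-fold within the interval, and in Csnk1d of up to 15.6-fold. In CPM the groups overlapped for all 6 genes, whereas for 12.3% of the genes tested they did not.

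Between pcDNA4c mCsnk2a1 and pcDNA4c Control, again none of the 6 passed, against 0.0987% of the genes tested (20 of 20267, with 13 or 0.0641% higher and 7 or 0.0345% lower). The point estimates of 5 genes were above 0, but each 95% interval included 0. Csnk1a1 had 205, 276 and 159 CPM in pcDNA4c mCsnk2a1 and 169, 108 and 64.3 CPM in pcDNA4c Control, a log2 difference of 0.91 (SE 0.51, 95% interval -0.16 to 1.97, edgeR adjusted p = 0.614). Its groups overlapped in CPM through 1 library of each, but not in TPM, where the groups of 15.6% of 19990 genes did not overlap; limma on the summed TPM gave 1.29 (adjusted p = 0.823). Csnk1g2 differed by 1.24 (SE 0.97, edgeR adjusted p = 0.819), a value that came from the second pcDNA4c mCsnk2a1 library and was -0.80 without it. Csnk1d differed by 0.12 (SE 1.05, adjusted p = 1.00), and by -2.26 without that library or 1.74 without the third pcDNA4c Control library. Csnk1e differed by 0.59 (SE 0.68), Csnk1g1 by 0.65 (SE 0.75) and Csnk1g3 by -0.33 (SE 1.06). All 6 genes overlapped between the groups in CPM, against 15.5% of the genes tested that did not.

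The 2 control groups, which received different plasmids, served as a yardstick for differences unrelated to Csnk2a1. Between shRNA Control and pcDNA4c Control none of the 6 passed, against 0.0691% of the genes tested, and the groups overlapped for each of the 6, against 13.7% without overlap. The log2 differences spanned -1.73 for Csnk1d (SE 1.08) to 0.80 for Csnk1e (SE 0.69). Between shRNA mCsnk2a1 and shRNA Control the estimates had spanned -1.57 to 1.69. The difference between the vector effect and the shRNA effect also passed for none of the 6, against 0.0197% of genes; it was largest for Csnk1g2, at 2.37 (SE 1.37, edgeR adjusted p = 0.669), and 0.49 (SE 0.71) for Csnk1a1.

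**Figure D4:**
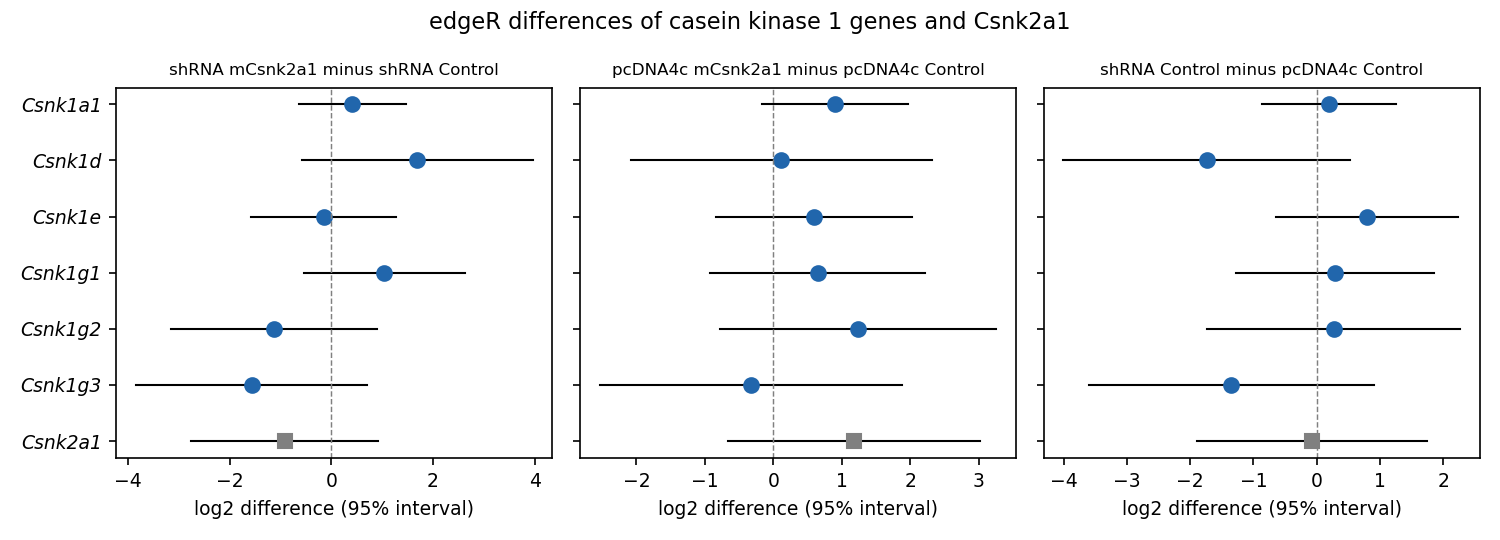
Log2 differences (horizontal axes) of the 6 casein kinase 1 genes (circles) and of Csnk2a1 (squares) from the edgeR fit, with 95% intervals as lines, for shRNA mCsnk2a1 minus shRNA Control, pcDNA4c mCsnk2a1 minus pcDNA4c Control, and shRNA Control minus pcDNA4c Control. Each interval includes 0, and the Csnk1a1 intervals are the narrowest, from -0.16 to 1.97 in the vector comparison.

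Single transcripts were tested with limma on log2(TPM + 1) over the 42607 transcripts with a mean of at least 1 TPM, 30 of them from CK1 genes. None of the 30 passed in any comparison, against 0.0141% of transcripts for shRNA mCsnk2a1, 0.0516% for pcDNA4c mCsnk2a1, 0.0657% between the controls and 0.00235% for the difference of effects. Csnk1e-201, the 2694-nt coding transcript of CK1 epsilon and the most abundant single CK1 transcript at a mean of 12.0 TPM, was one of 2 whose groups did not overlap with the vector, where 8.98% of transcripts did not. It had 7.17, 32.6 and 16.1 TPM in pcDNA4c mCsnk2a1 and 5.12, 6.45 and 3.06 TPM in pcDNA4c Control, a difference of 1.55 (SE 0.78, limma adjusted p = 0.893). The other was Csnk1e-210, a 566-nt coding transcript of the same gene, which went the opposite way. It was at 0 in pcDNA4c mCsnk2a1 and at 0.415, 2.99 and 0.500 TPM in pcDNA4c Control (-1.03, SE 1.03, limma adjusted p = 0.940). The level of Csnk1e-201 in shRNA Control, 18.2, 11.2 and 9.26 TPM, was likewise above all 3 pcDNA4c Control libraries (1.23, SE 0.78, adjusted p = 0.862; 9.36% of transcripts did not overlap there), and in shRNA mCsnk2a1 it was 9.48, 12.1 and 13.4 TPM. The low TPM values of Csnk1e-201 thus lay in pcDNA4c Control, the group with the high microglia marker sum, and the part of that sum in them was not tested. TPM were not scaled between libraries as the CPM were. The gene Csnk1e had 93.0 CPM at 19.0 TPM in the second pcDNA4c Control library, but 59.0 CPM at 16.2 TPM in the first pcDNA4c mCsnk2a1 library. At these ratios the 6.45 TPM of Csnk1e-201 in that pcDNA4c Control library stand for more scaled signal than the 7.17 TPM in that pcDNA4c mCsnk2a1 library. The third shRNA Control library had 159 CPM of the gene at 48.2 TPM, so its 9.26 TPM of Csnk1e-201 also stand for less. Both gaps of Csnk1e-201 therefore overlap after such scaling. The scaled transcript differences were not tested. The gene overlaps the antisense gene Gm16059 by 4410 bases, and that gene stayed at or below 7.14 CPM. The 2180-nt coding transcript of Csnk1g3, ENSMUST00000237880, was at 0, 0 and 0.201 TPM in shRNA mCsnk2a1 and 0.705, 2.29 and 1.81 TPM in shRNA Control without overlap, as for 6.87% of transcripts (-1.24, SE 0.86, limma adjusted p = 0.732).

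Genes that work with CK1 were followed through lists of substrates, scaffolds and relatives, and 0 members of any list passed in any comparison. The circadian list holds the PER and CRY repressors, the CLOCK and BMAL1 activators and their regulators. With the shRNA 17 of its 23 genes had an estimate above 0, with a median log2 difference of 0.99, against -0.03 over all genes tested, of which 48.9% were above 0, and with the vector 16 of 23 did, with a median of 0.29 against -0.16 and 45.1% above 0 over all genes. Cry2, a clock repressor, averaged 37.5 CPM in shRNA mCsnk2a1 and 6.69 CPM in shRNA Control (2.48, SE 1.17, edgeR adjusted p = 0.598), and Rorb, a nuclear receptor needed for rod development, averaged 610 CPM in pcDNA4c mCsnk2a1 and 368 CPM in pcDNA4c Control (0.73, SE 0.47, adjusted p = 0.706). In the Wnt relay 8 of 19 genes had an estimate above 0 with the shRNA and 12 of 19 with the vector. Btrc, the F-box protein that recognises phosphorylated beta-catenin, averaged 239 CPM in shRNA mCsnk2a1 and 59.1 CPM in shRNA Control (2.02, SE 0.71, adjusted p = 0.598), but 73.1 CPM in pcDNA4c mCsnk2a1 and 174 CPM in pcDNA4c Control (-1.25, SE 0.69, 0.613). The difference of these effects, -3.26, did not pass either (SE 0.99, edgeR adjusted p = 0.493). The Btrc libraries overlapped in both arms, with 60.8, 413 and 244 CPM in shRNA mCsnk2a1 and 65.3, 89.3 and 22.7 CPM in shRNA Control. With the vector they were 50.3, 106 and 62.8 CPM in pcDNA4c mCsnk2a1 and 103, 284 and 134 CPM in pcDNA4c Control. Between shRNA Control and pcDNA4c Control Btrc differed by -1.55 (SE 0.70), and shRNA Control had the lowest average of the groups. Axin1, the scaffold of the destruction complex, had 35.3, 9.54 and 163 CPM in shRNA mCsnk2a1 and 0.519, 15.5 and 0.567 CPM in shRNA Control (3.64, SE 1.43, adjusted p = 0.598), with overlap. With the vector its estimate was below 0, with 7.87, 14.4 and 25.8 CPM in pcDNA4c mCsnk2a1 and 149, 28.0 and 10.5 CPM in pcDNA4c Control (-1.96, SE 1.33, edgeR adjusted p = 0.743). Between shRNA Control and pcDNA4c Control it differed by -3.50 (SE 1.43, edgeR adjusted p = 1.00), so shRNA Control was the group with the lowest average.

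Of the 10 Hedgehog relay genes 8 were expressed enough to be tested, 3 of them with an estimate above 0 with the shRNA and 6 with the vector. Smo, the signal transducer that CK1 phosphorylates, differed by 0.90 with the shRNA (SE 1.24, edgeR adjusted p = 0.982). Only 4 of the 8 FAM83 genes, whose proteins tether CK1 to its sites in the cell, could be tested. Among the 5 other kinases of the CK1 group, Ttbk2, a tau-tubulin kinase needed to build cilia, averaged 24.8 CPM in shRNA mCsnk2a1 and 107 CPM in shRNA Control (-2.11, SE 0.95, edgeR adjusted p = 0.598). Of the 3 CK2 subunits, Csnk2a2, the alternative catalytic subunit, differed by 2.98 with the shRNA (SE 1.34, edgeR adjusted p = 0.598). It had 3.00, 174 and 89.1 CPM in shRNA mCsnk2a1 and 6.74, 16.1 and 10.8 CPM in shRNA Control, with overlap. Between shRNA Control and pcDNA4c Control it differed by -2.47 (SE 1.32), without overlap, as for 13.7% of the genes tested.

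No CK1 gene was among the 3 genes nearest to another over the libraries. Likeness was measured as the mean absolute difference of log2(CPM + 1), centred per gene over the 12 libraries, among 8029 protein-coding genes, with rank 1 the nearest. The closest CK1 relative of Csnk1a1 was Csnk1e, at rank 892 with a difference of 0.60, and Csnk1e was also that of Csnk1g2, at rank 243 (0.79). Csnk1a1 was the closest relative of Csnk1e at rank 336 (0.60), of Csnk1g1 at rank 557 (0.74) and of Csnk1g3 at rank 1208 (1.15). For Csnk1d it was Csnk1g2, at rank 609 (1.20). The 3 genes nearest to Csnk1a1 were Zfp385a, Huwe1 and Psmd4, at 0.23 to 0.26 where the median gene was at 1.02, those nearest to Csnk1e were Tomm6, Cct5 and Sptan1 (0.31 to 0.33), and to Csnk1g1 Azi2, Pink1 and Ran (0.36 to 0.40). For Csnk1g3 they were Zcchc8, Zzef1 and Ppp1r12b (0.60 to 0.70), and for Csnk1d Robo2, Dlat and Thap12 (0.67 to 0.75). The points share libraries and their depth, so these values describe the 12 libraries only. The measure was not scaled to the spread of each gene, so a steady gene such as Csnk1a1 can lie near others without moving with them. The part of this in the ranks was not tested.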

How the data were processed

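RNA of 50 to 100 rods per library was amplified with a stranded total-RNA kit by PCR without molecular identifiers, so counts are not independent molecules; the intervals given come from the fit over libraries and cover the spread between them. Per the submitters' processing notes, kallisto 0.45.0 and edgeR 3.28 were used with mm10; the sources used here do not give the annotation release. The gene table the authors deposited contains estimated counts, not normalized between libraries. The deposited transcript table holds TPM, as each column sums to 1000000. A further deposited table, a scaled signal in CPM-like units for 11 libraries, was used for gene names and positions only, and 1 library, pcDNA4c mCsnk2a1 1, was not used here on it. In all 4928 genes checked, the deposited estimated count equalled the summed TPM times 1 constant per gene and 1 per library within 1%, so a short transcript with few fragments can raise a gene's count. Through that relation the Csnk1d transcript outside GENCODE M21 was recovered; 97.9% of transcripts matched M21.

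Estimated counts were rounded to whole numbers, filtered with filterByExpr (minimum count 10, leaving 20267 genes), TMM-scaled (trimmed mean of M-values) and fitted in edgeR 4.0.16 (R 4.3.3) with the quasi-likelihood test, all 12 libraries and 4 groups in 1 fit; Benjamini-Hochberg adjusted p under 0.05 passed. The SE restates the F statistic. Transcripts were tested with limma 3.58.1 on TPM that were not scaled between libraries. Members that passed a list were to be named, otherwise the 2 with the smallest unadjusted p, of which the text gives some. The edgeR test was tried on simulated data for shRNA mCsnk2a1 against shRNA Control, with changes set in more highly expressed genes. Of 100 genes changed by a log2 value of 3 it recovered 39%, and of 100 changed by 6 it recovered 92%. Changes of the smaller size were thus missed more often than found. Alternatives covered scaling, filters, DESeq2 1.42.0, limma voom, single comparisons, a replicate block, summed TPM and leaving out each library. The members and lists were chosen with earlier results of these data known. The genes nearest to Csnk1g2 in level pattern are not reported here.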

Additional observations from a re-analysis of the deposited data

How the results depend on the processing

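No CK1 gene and no CK1 transcript passed under any alternative run: of 414 alternative values of the 24 gene differences 0 passed, the lowest adjusted p being 0.461 (DESeq2, Csnk1a1 with the vector), and 26 changed sign. The 9 pairs in the order of levels stayed within 6 to 9. The replicate numbers did not pair the libraries (correlations of same-numbered deviations -0.040 to 0.009); with a replicate block 1 gene was called with the shRNA, 26 with the vector, 18 between the controls and 9 for the difference of effects, and Csnk1g3 with the vector was 0.0026.

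Counts over all genes moved, from 0 (shRNA), 20 (vector), 14 (controls) and 4 (difference of effects). With no filter they were 93, 111, 71 and 137, with DESeq2 183, 249, 69 and 209, and with limma voom 2 (shRNA), 37 (vector) and 1 (difference of effects). Summed TPM gave 2 (shRNA), 24 (controls) and 2 (difference of effects), long coding TPM 33 (vector), the 6 libraries of a pair alone 6 (vector), and RLE size factors or the 50-count filter 2 (difference of effects). Leaving out single libraries gave 0 to 2, 14 to 35, 11 to 15 and 2 to 16; the vector count was 35 without pcDNA4c mCsnk2a1 1, and the difference count was 16 without it, 9 without shRNA mCsnk2a1 2, 7 without shRNA Control 1 and 2 without pcDNA4c Control 1.

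Signs turned with long coding TPM for Csnk1d with the shRNA (-0.38), Csnk1g1 (-0.19) and Csnk1g3 (0.52) with the vector, Csnk1d (0.88), Csnk1g2 (-0.67) and Csnk1g3 (0.073) between the controls, Csnk1d for the difference of effects (0.74), and for the levels of Csnk1d against Csnk1g2 (-0.83) and Csnk1g3 (-0.29) and of Csnk1g1 against Csnk1g2 (-0.76) and Csnk1g3 (-0.22). Summed TPM turned Csnk1g3 with the vector (0.15) and Csnk1d (0.036) and Csnk1g1 (0.42) for the difference of effects, and summed counts as the only scaling turned Csnk1d with the vector (-0.12). The cause of these turns was not tested. Both long coding TPM and summed TPM leave out the Csnk1d transcript outside GENCODE M21 in the tests between groups. Leaving out single libraries gave ranges that crossed 0 for Csnk1e with the shRNA (-0.43 to 0.41), Csnk1d (-2.26 to 1.74), Csnk1g2 (-0.80 to 1.77) and Csnk1g3 (-1.04 to 0.56) with the vector, Csnk1a1 (-0.071 to 0.60), Csnk1g1 (-0.030 to 0.91) and Csnk1g2 (-0.31 to 0.57) between the controls, Csnk1d (-3.95 to 0.067) and Csnk1g1 (-0.91 to 0.23) for the difference of effects, and Csnk1e-201 with the shRNA (-0.29 to 0.16). Differences of a size within the intervals given in the report remain possible for each gene.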
